A study of Mus musculus with 4 samples.

Results

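Interferon-stimulated and antigen presentation genes were followed in mouse hearts that carry a knock-in of GSK-3alpha, the kinase that Akt and related enzymes restrain by phosphorylating serine 21. The set was listed by name, and its members were taken as every probe set whose only gene symbol in the array annotation is on the list. Of 39 listed genes, 37 were measured, by 59 of the 45037 probe sets tested, among 18193 genes in all. Isg15 shares its only listed probe set with a second gene symbol, and Ifi44 had no probe set of a single symbol in the annotation used here, so both are not analysed.

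The data are single-colour Affymetrix arrays of heart RNA from mice aged 3.6 months at baseline, with no treatment. For all 4 arrays C57B6 is recorded as the wild-type strain. The GSK-3alpha S21A group (knock-in below) holds 2 arrays of hearts whose GSK-3alpha has alanine in place of serine 21, and the wild-type group holds 2 arrays. Nothing in the labels ties each array to a separate animal or says whether both chromosomes carried the allele, so n counts arrays and the p-values measure only the spread between these samples, which may be technical. Values are RMA values, which are background-corrected and normalised signals on the log2 scale, so a difference of 1 is a doubling of signal.

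Interferons bind receptors at the cell surface and activate the kinases JAK1, JAK2 and TYK2, which phosphorylate STAT proteins. Type I interferons lead to a complex with STAT2 and IRF9 that binds a promoter element called ISRE, while interferon gamma acts mainly through another element, called GAS. The induced genes block viral replication, sense foreign RNA and DNA, recruit lymphocytes and load peptides onto MHC class I. In the heart they are best known from viral myocarditis and from the response to infarction, and uninfected tissue keeps a low tonic level of many of them.

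The promoters of several members carry the ISRE core, and the following stretches are shown because these genes lead the comparison below or stand apart from it. RefSeq promoter windows (build GRCm38.p6, 300 bases from 250 before to 50 after a gene's start) matched 27 of the 37 measured members. The ISRE core was searched on both strands as GAAA, any 2 bases (NN) and GAAA again, which reads TTTC, NN and TTTC from the other strand. Each stretch runs 5′ to 3′ on the gene's strand and stops at or before the start, with the matches in capitals and 20 bases on each side where the window allowed.
Ifit1, chr19:34640765-34640833, plus strand: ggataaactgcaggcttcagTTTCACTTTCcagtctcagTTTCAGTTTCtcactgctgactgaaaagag
Ifit3, chr19:34583353-34583436, plus strand: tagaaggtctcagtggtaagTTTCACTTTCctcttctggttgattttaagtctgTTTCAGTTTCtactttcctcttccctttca
Bst2, chr8:71537567-71537622, minus strand: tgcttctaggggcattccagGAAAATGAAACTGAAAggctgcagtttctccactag
Oas1a, chr5:120907526-120907565, minus strand: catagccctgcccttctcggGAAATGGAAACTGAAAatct
Rsad2, chr12:26456543-26456592, minus strand: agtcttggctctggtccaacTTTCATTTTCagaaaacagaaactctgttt
Igtp, chr11:58199502-58199551, plus strand: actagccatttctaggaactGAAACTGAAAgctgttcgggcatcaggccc
Cxcl10, chr5:92349073-92349122, minus strand: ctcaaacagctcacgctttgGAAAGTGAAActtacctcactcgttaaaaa
Irgm1, chr11:48871421-48871470, minus strand: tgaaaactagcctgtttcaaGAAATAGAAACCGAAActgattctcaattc
Stat2, chr10:128270256-128270305, plus strand: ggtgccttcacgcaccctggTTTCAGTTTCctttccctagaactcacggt
Ifit1, Ifit3, Bst2, Oas1a and Irgm1 each hold 2 matches, which overlap in Bst2, Oas1a and Irgm1. The first match begins 104 bases before the start in Ifit1, 156 in Ifit3, 130 in Bst2, 20 in Oas1a, 34 in Igtp and 213 in Cxcl10. Of the 27 members with a window, 14 held the ISRE core (51.9%), against 3.99% of all 27018 genes with a window, and in 2 of the 14, Ifih1 and Ddx58, the match lay partly or wholly after the start. The GAS letters, TTCNNNGAA, which read the same on both strands, were in 8 of 27 members (29.6%) and in 9.55% of all genes. These matches describe the letters in the windows and are not evidence of binding.

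Most of the 37 genes had lower values in the knock-in hearts, by small amounts that did not pass the test for any gene. The difference (knock-in minus wild-type) was below 0 for 29 members and above 0 for 8, and 53% of all genes lay below 0. Its median over members was -0.13, against -0.01 over all genes. With the arrays shifted to a common median, the member median was -0.07 and that of all genes 0.05. Without knock-in replicate 1 they were -0.08 and 0.01. The shift moves the difference of every gene by the same amount, so each later median under it stands beside 0.05 over all genes. Single members ranged from -0.56 for Ifit1 to 0.19 for Irf1. No member reached a 2-fold difference in either direction. With limma and Benjamini-Hochberg adjustment over all probe sets, 0 members were called lower, with 0% of all genes called lower, and 0 were called higher, with 0.011% called higher. The smallest adjusted p of a member was 0.458. At an unadjusted limma p under 0.05, 7 members were lower (4.76% of all genes) and 0 were higher (5.45% of all genes). That count of 7 was 2 without wild-type replicate 1 (2.33% of all genes), 1 without knock-in replicate 1 (1.81%) and 3 without knock-in replicate 2 (1.74%). It was 3 with the replicate number as a block (5.08%) and 1 with the arrays shifted to a common median (2.42%).

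Both knock-in arrays lay below both wild-type arrays for 17 of the 37 members, as they did for 24.1% of all genes, and the count was 11 with the arrays shifted to a common median, against 15.5% of all genes. They lay above both wild-type arrays for 4 members, Irf1, Irf8, Ifih1 and Tapbp, as they did for 22.5% of all genes. Dim probe sets leaned lower in the whole table, so the same counts were taken over genes with a mean of at least 6, near the array medians of 6.14 to 6.23. There 34 members remained, of which 27 had a difference below 0, against 41.3% of all such genes. In 16 of the 34 both knock-in arrays were below both wild-type arrays, against 17.6% of all such genes, and 6 were lower at an unadjusted p under 0.05, against 3.47%. The median difference was -0.13 for these members and 0.04 for all such genes.

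The plot of levels by array gives all 37 genes, from Mx1 near the background of the array to B2m among the bright transcripts.

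**Figure D1:**
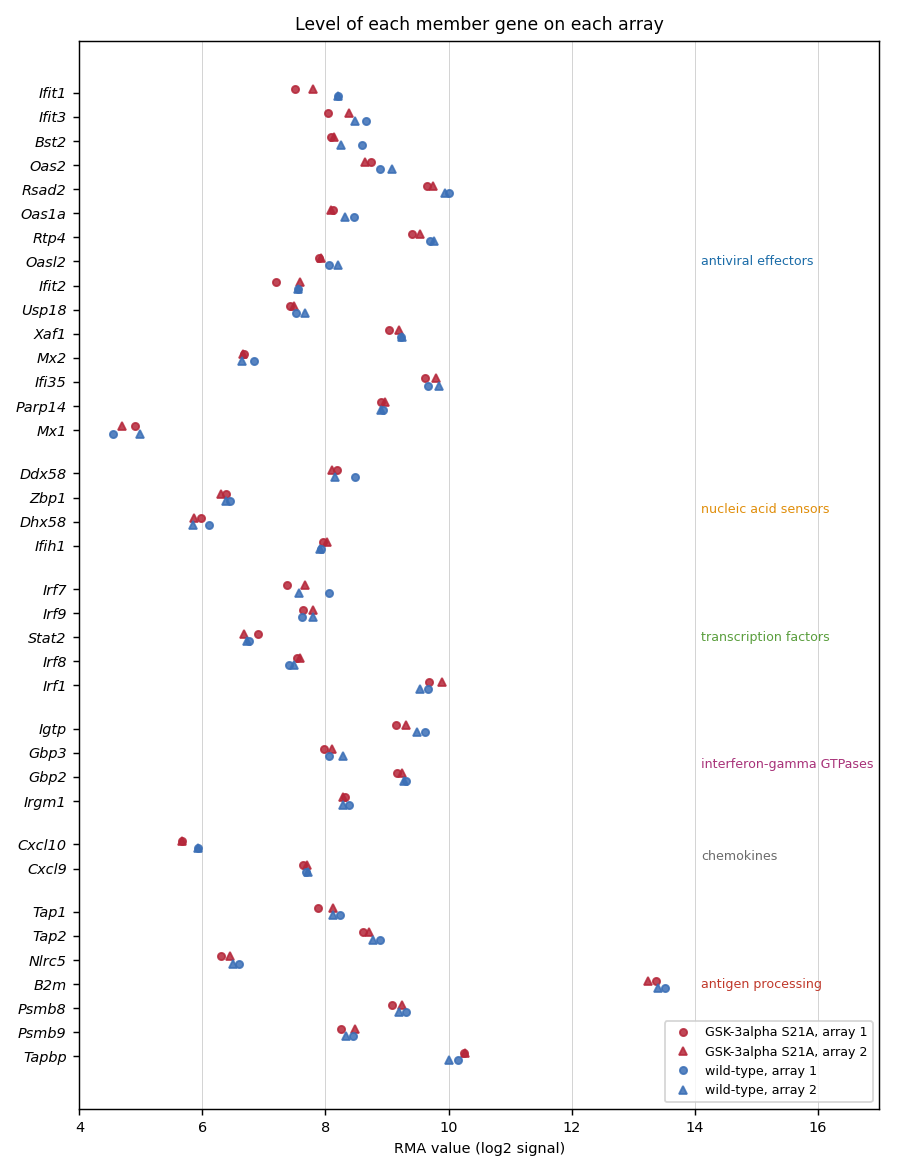
RMA value (log2 signal, x axis) of each of the 37 measured members on the 2 GSK-3alpha S21A arrays (red) and the 2 wild-type arrays (blue), circles for array 1 and triangles for array 2, grouped by role. Ifit1 shows the widest gap, with 7.51 and 7.79 on the knock-in arrays and 8.21 and 8.20 on the wild-type arrays.

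Of the 15 antiviral effectors measured, 13 had a difference below 0, against 53% of all genes. The median over the 15 was -0.22, and -0.16 with the arrays shifted to a common median. In 10 of the 15 both knock-in arrays lay below both wild-type arrays, against 24.1% of all genes. At an unadjusted p under 0.05, 5 of the 15 were lower (4.76% of all genes) and 0 higher (5.45% of all genes). Ifit1, which encodes a protein that binds viral RNA lacking the host's cap methylation, had 7.51 and 7.79 on the knock-in arrays, against 8.21 and 8.20 on the wild-type arrays. The groups did not overlap, and knock-in replicate 1 was the lowest. The difference was -0.56 ± 0.13 (SE), with 95% bounds of -0.87 and -0.25 (limma adjusted p = 0.458), a 1.47-fold lower signal.

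Ifit1 lies on chromosome 19 with its relatives Ifit2 and Ifit3, and these did not move by the same amount. Ifit3, which supports signalling from the viral RNA sensors, had 8.04 and 8.39 in knock-in hearts, against 8.66 and 8.48 in wild-type hearts, a difference of -0.35 (95% interval -0.71 to 0.01) that was -0.17 without knock-in replicate 1 and -0.53 without knock-in replicate 2. Knock-in replicate 1 was low, while knock-in replicate 2 lay just under wild-type replicate 2. Ifit2, which also restrains viral translation, had 7.20 and 7.58 in knock-in hearts, against 7.55 and 7.55 in wild-type hearts. Its low value was again knock-in replicate 1, the groups overlapped, and the difference of -0.16 turned to 0.03 without that array.

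Oligoadenylate synthetases, on sensing double-stranded RNA, make the signal that activates RNase L, and the members Oas1a and Oas2 were lower to a like extent. Oas1a had 8.13 and 8.09 on the knock-in arrays, against 8.46 and 8.31 on the wild-type arrays, a difference of -0.28 ± 0.11 (SE). Oas2 had 8.74 and 8.65, against 8.89 and 9.08 in wild-type hearts, a difference of -0.29 ± 0.12 (SE). Neither pair of groups overlapped, and in both genes the knock-in arrays lay close together. The family member Oasl2 had 7.89 and 7.93, against 8.06 and 8.21 in wild-type hearts, a difference of -0.22 (95% interval -0.49 to 0.05). Outside the set, Oas1b lay at -0.40 and the dim Oas3 at -0.06, the latter with overlapping groups. Both are named after their values were seen.

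Rsad2 encodes viperin, an enzyme that makes a chain-terminating nucleotide, and it was measured by 3 probe sets. The brightest averaged 9.69 ± 0.07 on the knock-in arrays, against 9.97 ± 0.05 on the wild-type arrays (SD, n = 2 each), a difference of -0.28. The other 2 lay at -0.11 and -0.25, and in all 3 both knock-in arrays were below both wild-type arrays. Rtp4, an interferon-induced chaperone that also dampens the response, had 9.40 and 9.53 in knock-in hearts, against 9.70 and 9.76 in wild-type hearts, a difference of -0.27, and its dim probe set lay at -0.18. Bst2, which encodes tetherin, a protein that holds budding virions on the cell, had 8.09 and 8.14, against 8.60 and 8.26 in wild-type hearts. Its difference of -0.31 was -0.15 without wild-type replicate 1, the highest array.

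The remaining antiviral effectors differed less. Usp18, the protease that removes ISG15 from proteins and blocks the type I receptor, lay at -0.14, and the apoptosis-related gene Xaf1 at -0.12, each with both knock-in arrays below both wild-type arrays. The GTPase gene Mx2 lay at -0.07, Ifi35 at -0.05 and the ADP-ribosyltransferase gene Parp14 at 0.01, with overlapping groups. Mx1, whose deleted form in C57BL/6 and most other inbred strains makes no working protein, was dim, at 4.91 and 4.70 in knock-in hearts, against 4.55 and 4.98 in wild-type hearts. Its difference of 0.04 had a 95% interval from -0.36 to 0.44.

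The sensors of foreign nucleic acid stood near 0, with a median of -0.06 over 4 genes that turned to 0.02 after cyclic loess, and none had an unadjusted p under 0.05. Ddx58, which encodes the RNA sensor RIG-I, had 8.18 and 8.11 on the knock-in arrays, against 8.48 and 8.16 on the wild-type arrays. Wild-type replicate 1 alone was high, and the other Ddx58 probe sets lay at 0.11 and 0.14, opposite in sign to the difference of -0.17 of the brightest. Ifih1, which encodes the sensor of long double-stranded RNA, had 7.96 and 8.02 in knock-in hearts, against 7.92 and 7.91 in wild-type hearts, a difference of 0.07 with both knock-in arrays above both wild-type arrays. Dhx58, a helicase gene that tunes both sensors, lay at -0.06, and Zbp1, a sensor of left-handed nucleic acid that triggers necroptosis, at -0.07 by its brightest probe set and -0.25 by the other.

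By their brightest probe sets, 4 of 5 transcription factors had a difference above 0, with a median of 0.06, and none had an unadjusted p under 0.05. When all probe sets of a gene were averaged, Irf8 turned to -0.04 and Stat2 to -0.07, so that Irf1 and Irf9 alone of the 5 stayed above 0. Irf1, an activator induced mainly by interferon gamma, had 9.69 and 9.89 on the knock-in arrays, against 9.66 and 9.54 on the wild-type arrays. The groups did not overlap, by a gap between 9.69 and 9.66, and the difference of 0.19 had a 95% interval from -0.11 to 0.48. Irf7, which amplifies type I interferon production, had 7.37 and 7.67 in knock-in hearts, against 8.06 and 7.57 in wild-type hearts. Wild-type replicate 1 was high, and its difference of -0.29 was -0.04 without that array. Irf9 and Stat2, the DNA-binding and activating parts of the ISRE-binding complex, lay at 0.02 and 0.06, and another Stat2 probe set lay at -0.20. Irf8, a factor of myeloid cells, lay at 0.12 by its brightest probe set and at -0.19 by the other.

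The interferon gamma GTPases take part in defence against pathogens held in vacuoles. The differences of all 4 were below 0, with a median of -0.11 (-0.05 with the arrays shifted to a common median), although that of Irgm1 turned to 0.03 under the same shift. Igtp, also called Irgm3, had 9.14 and 9.31 on the knock-in arrays, against 9.62 and 9.49 on the wild-type arrays. The groups did not overlap, and the difference was -0.33 ± 0.12 (SE), with 95% bounds of -0.61 and -0.05 (limma adjusted p = 0.458). Its relative Irgm1, whose stretch above also holds the ISRE core, had 8.32 and 8.29, against 8.38 and 8.29 in wild-type hearts, a difference of -0.03. The guanylate-binding protein genes Gbp2 and Gbp3 lay at -0.09 and -0.13.

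Both chemokines of the set draw T cells through the receptor CXCR3. Cxcl10 had 5.66 and 5.67 in knock-in hearts, against 5.93 and 5.92 in wild-type hearts. The arrays of each group lay close together and apart from the other group, but at these levels, below the array medians, the signal may hold mostly background and no fold is given (difference -0.25, limma unadjusted p = 0.0451 and adjusted p = 0.462). Cxcl9 had 7.64 and 7.70, against 7.69 and 7.71 in wild-type hearts, a difference of -0.03.

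Of the antigen processing genes 6 of 7 lay below 0, with a median of -0.15 (-0.09 with the arrays shifted to a common median) and none at an unadjusted p under 0.05. Tap1 and Tap2 encode the transporter that carries peptides into the endoplasmic reticulum. Tap1 had 7.88 and 8.13 on the knock-in arrays, against 8.24 and 8.13 on the wild-type arrays, and its 4 probe sets all lay below 0, between -0.22 and -0.10. Tap2 had 8.61 and 8.71, against 8.89 and 8.77 in wild-type hearts, a difference of -0.17 with no overlap. Tapbp, which encodes the tapasin that bridges this transporter to class I molecules, had 10.25 and 10.26, against 10.16 and 10.01 in wild-type hearts. Its difference of 0.17 was the only one above 0 in the group, and its dimmer probe set lay at -0.09.

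B2m, the light chain of every class I molecule, was the brightest member, at 13.38 and 13.24 on the knock-in arrays and 13.52 and 13.40 on the wild-type arrays, a difference of -0.15. Its other probe set, nearly as bright, lay at 0.02 with overlapping groups. Nlrc5, the transactivator of class I genes, averaged 6.38 ± 0.11 in knock-in hearts, against 6.54 ± 0.06 in wild-type hearts (SD, n = 2 each), a difference of -0.17 with no overlap. Psmb8 and Psmb9, catalytic subunits of the immunoproteasome, lay at -0.09 and -0.02, and their constitutive counterparts Psmb5, Psmb6 and Psmb7 at 0.05, 0.08 and 0.12.

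**Figure D2:**
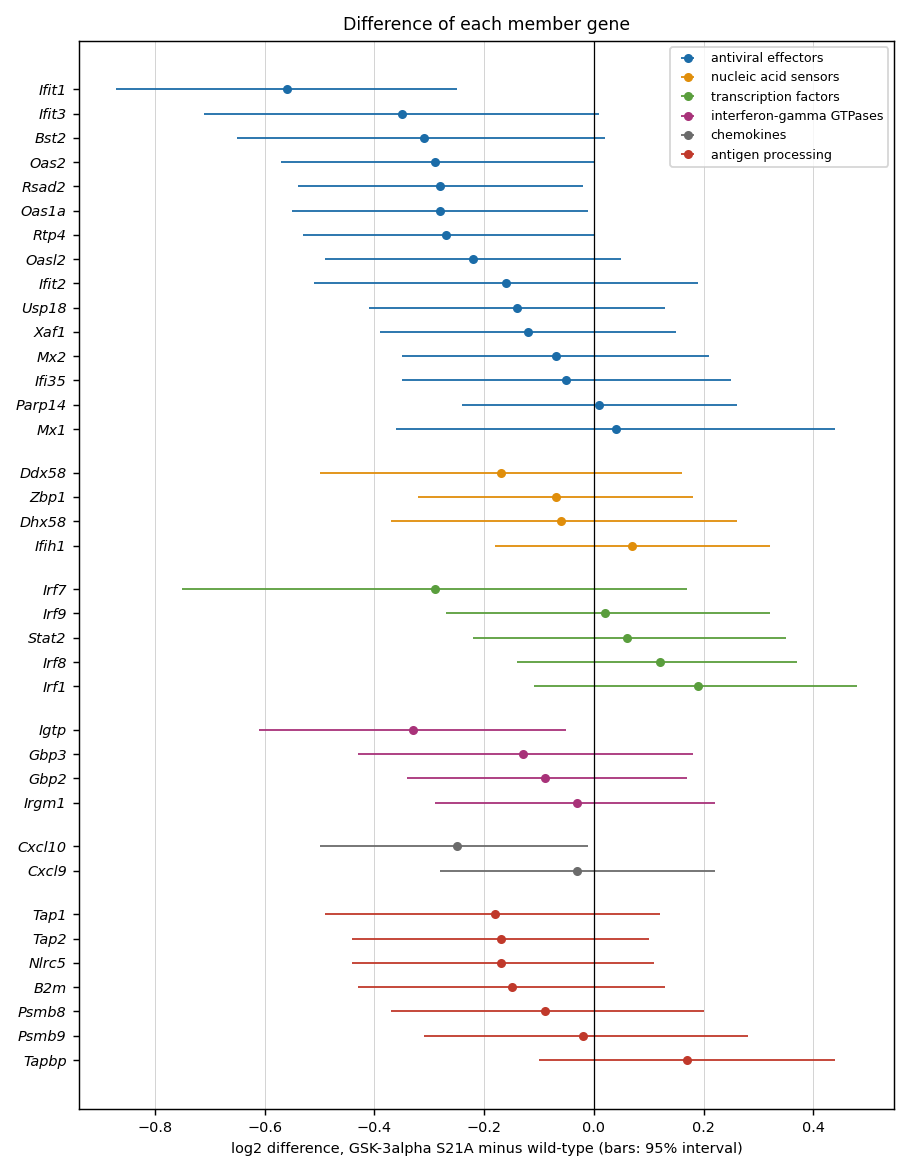
Log2 difference, GSK-3alpha S21A minus wild-type (x axis), of the 37 members with the 95% interval of the limma fit (bars, 2 arrays per group), ordered within each role. The interval lies below 0 for the 7 genes with an unadjusted p under 0.05, whereas 4 of 5 transcription factors stand above 0 by the brightest probe sets drawn here.

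Several probe sets measured 16 of the members, and in 8 of these they had the same sign while in the other 8 the signs were mixed. Over all 59 probe sets, 46 differences were below 0 and 13 above 0. Mixed signs were found for B2m, Ddx58, Dhx58, Irf8, Parp14, Psmb8, Stat2 and Tapbp. None of the genes with an unadjusted p under 0.05 is among them, although Ifit1, Oas1a, Oas2, Igtp and Cxcl10 rest on a single probe set.

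The count of members lower varied with the pair of arrays compared. Set against wild-type replicate 1, knock-in replicate 1 had 30 of 37 members lower, with a median of -0.16, and against wild-type replicate 2 it had 27 lower, also with a median of -0.16. Knock-in replicate 2 had 25 members lower than wild-type replicate 1, with a median of -0.11, and 24 lower than wild-type replicate 2, with a median of -0.05. Over all genes these 4 medians lay between -0.05 and 0.02. The share of all genes lower also varied, at 59%, 49.9%, 51.5% and 45% in the same order of pairs. Between arrays of the same genotype the member median was -0.06 for knock-in replicate 1 minus knock-in replicate 2 (-0.03 over all genes). It was 0.05 for wild-type replicate 1 minus wild-type replicate 2 (0.04 over all genes). The smallest member median between genotypes, -0.05 (0.02 over all genes), was of the same size as these 2, before any allowance for the medians over all genes.

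Among the 27 members with a promoter window, those that hold the ISRE core were lower than those that do not, as a description with no test. The other 10 measured members had no window and are left out. All the interferon gamma GTPases hold the core and most of the transcription factors lack it, so motif and role cannot be told apart here. Of the 14 with the core, 12 had a difference below 0 and 9 had both knock-in arrays below both wild-type arrays, with a median of -0.21 and a range from -0.56 to 0.07. Of the 13 without it, 9 were below 0 and 2 had no overlap in that direction, with a median of -0.05 and a range from -0.29 to 0.19. Over all genes 53% lay below 0 and 24.1% had both knock-in arrays below both wild-type arrays. Irgm1 and Stat2, at -0.03 and 0.06, show that the core was also present in members with no clear difference, and Oasl2 and Irf7, at -0.22 and -0.29, lacked these letters in their windows.

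**Figure D3:**
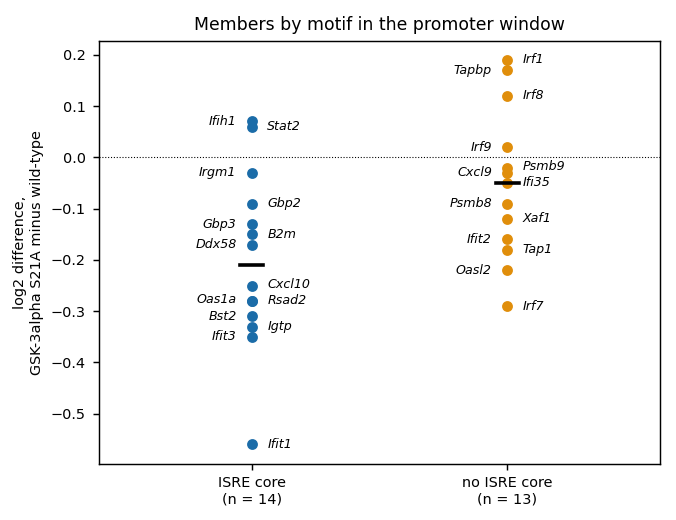
Log2 difference, GSK-3alpha S21A minus wild-type (y axis), of the 14 members with the ISRE core in their RefSeq promoter window (left) and the 13 without it (right); points are genes and short black lines are medians. The medians are -0.21 and -0.05, and the ranges overlap.

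Other genes of the pathway were taken from lists, and none of their members passed the test. Of 6 interferon genes measured all 6 lay below 0, with a median of -0.16 (-0.07 after cyclic loess), but 5 of the 6 had a mean below 6 and carry little signal. Ifnb1 had 5.45 and 5.73 on the knock-in arrays, against 5.81 and 5.73 on the wild-type arrays, and Ifna4, Ifna5 and Ifna2 lay at -0.24, -0.21 and -0.14. Of the receptors, kinases and STAT proteins 8 of 10 lay above 0, with a median of 0.10 (0.02 after quantile normalisation). None had an unadjusted p under 0.05, and none had a mean below 6. Over all genes with a mean of at least 6 the median was 0.04, and 41.3% lay below 0. Among the 10, the interferon gamma receptor genes Ifngr2 and Ifngr1 lay at 0.34 and 0.12. Il10rb lay at 0.13 and Stat3 at -0.17, with other Stat3 probe sets between -0.38 and 0.39.

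Of the negative regulators 5 of 8 lay below 0, with a median of -0.01 that turned to 0.05 with the arrays shifted to a common median. Socs1, which inhibits the JAK kinases and is itself induced by interferon, had 4.88 and 4.92 in knock-in hearts, against 5.12 and 5.14 in wild-type hearts, all dim. Socs3 lay at -0.27, with its other probe sets at 0.00 and 0.05, Irf2 at 0.33 and Pias4 at -0.14. Of 10 adaptors and signal carriers of the sensors 6 lay above 0, with a median of 0.04, Tbk1 at 0.23, Tlr3 at 0.17, Mavs at 0.13 and Tlr9 at -0.12. None of the genes in either list had an unadjusted p under 0.05.

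Of a further 36 interferon-induced genes 25 lay below 0, against 53% of all genes, with a median of -0.10 that was -0.04 with the arrays shifted to a common median. At an unadjusted p under 0.05, 4 were lower (4.76% of all genes) and 1 was higher (5.45% of all genes). Iigp1, a GTPase of the same family as Igtp, had 10.59 and 10.73 on the knock-in arrays, against 11.23 and 11.77 on the wild-type arrays. The groups did not overlap, wild-type replicate 2 was the highest, the difference was -0.84 ± 0.18 (SE; limma adjusted p = 0.458), and its other probe set lay at -0.51. Ifitm1, which restricts viral entry, lay at -0.35, and Trim30a at -0.31, with its other probe set at -0.03. Epsti1 went the opposite way, at 6.43 and 6.45 in knock-in hearts, both above the wild-type hearts, a difference of 0.44, although its other probe sets lay between -0.21 and 0.23.

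Among class I heavy chains and their loading partners 6 of 9 lay above 0, with a median of 0.09, which was 0.02 after quantile normalisation. None had a mean below 6, and the median over all genes with a mean of at least 6 was 0.04. The heavy chain genes H2-K1 and H2-D1 had probe sets of mixed sign, from -0.22 to 0.22 and from -0.22 to 0.36 beside the brightest. They are named after their values were seen. The chaperone genes Pdia3 and Calr, which also serve general protein folding, lay at -0.39 and -0.24, and Erap1, which trims peptides, and Canx at 0.15 and 0.12. Class II genes, which mark antigen-presenting cells, had 7 of 9 below 0 and a median of -0.12, which was -0.06 with the arrays shifted to a common median. H2-Aa, a class II chain, had 11.24 and 11.17 on the knock-in arrays, against 11.54 and 11.65 on the wild-type arrays, a difference of -0.39, with its other probe sets between -0.21 and 0.08. The invariant chain gene Cd74 lay at -0.24, H2-Oa at -0.25 and the dim H2-Ob at 0.20.

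**Figure D4:**
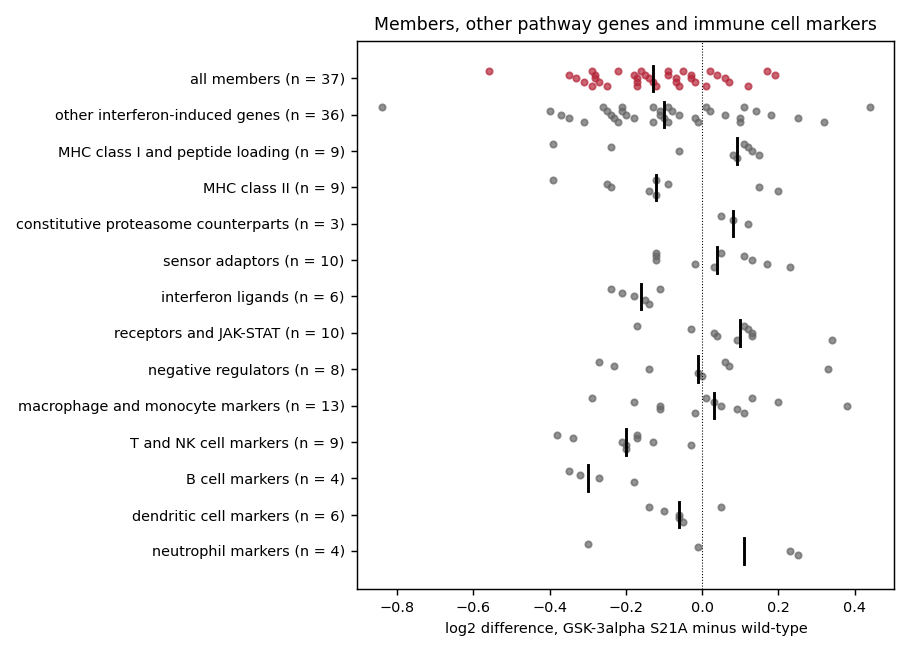
Log2 difference, GSK-3alpha S21A minus wild-type (x axis), for the 37 members (red), the other pathway lists and immune cell marker lists (grey); points are genes and black bars are medians. The members and the further interferon-induced genes have medians of -0.13 and -0.10, and the receptors and JAK-STAT genes 0.10.

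Whole hearts hold several cell types, and in bulk RNA fewer cells of a type and less RNA per cell cannot be told apart. Lymphocyte markers lay below 0 by their brightest probe sets. All 9 T and NK cell markers measured did so, with a median of -0.20 (-0.12 after cyclic loess), but 4 of the 9 had a mean below 6, where 77.8% of all genes lay below 0. Their summed linear signal was 706 and 679 on the knock-in arrays, against 830 and 752 on the wild-type arrays. The defining marker Cd3e had 7.64 and 7.51 in knock-in hearts, against 7.77 and 7.78 in wild-type hearts. All 4 B cell markers lay below 0 by their brightest probe sets, with a median of -0.30, while other probe sets of Ms4a1 and Cd22 lay at 0.08 and 0.14. They had a summed signal of 290 and 255 on the knock-in arrays, against 370 and 305 on the wild-type arrays. The defining marker Cd79a had 6.72 and 6.51 in knock-in hearts, against 7.12 and 6.81 in wild-type hearts.

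Macrophage markers had 8 of 13 above 0, a median of 0.03 (-0.05 after quantile normalisation and -0.03 after cyclic loess) and a summed signal of 13073 and 12322, against 11567 and 12294 on the wild-type arrays. Csf1r, the receptor that defines these cells, lay at 0.20 and Mrc1 at 0.38, while the dim Itgam lay at -0.29 and Fcgr1 at -0.18. At an unadjusted limma p under 0.05, 1 of the 13 was lower and 1 higher (4.76% and 5.45% of all genes). Dendritic cell markers had a median of -0.06 (0.00 with the arrays shifted to a common median), with 5 of 6 below 0 and a summed signal of 601 and 571, against 658 and 586 on the wild-type arrays. Neutrophil markers had a median of 0.11, with 2 of 4 below 0 and a summed signal of 398 and 288, against 339 and 292 on the wild-type arrays. Endothelial markers, 6 of 7 above 0, had a median of 0.20 (0.13 after quantile normalisation) and a summed signal of 7930 and 8812, against 7675 and 7305 on the wild-type arrays. In 6 of the 7 both knock-in arrays lay above both wild-type arrays, against 22.5% of all genes. At an unadjusted limma p under 0.05, 2 were higher (5.45% of all genes), Vwf at 0.48 and Cldn5 at 0.31, and 0 lower (4.76%). Cdh5 lay at 0.20, with its other probe set at -0.19. All 5 fibroblast markers lay above 0 by their brightest probe sets, with a median of 0.13 (0.08 after cyclic loess), while other probe sets of Col1a1, Dcn and Tcf21 lay at -0.23, -0.30 and -0.15. They had a summed signal of 16307 and 17638, against 15333 and 15540 on the wild-type arrays. No endothelial or fibroblast marker had a mean below 6, and the median over all genes with a mean of at least 6 was 0.04. The part of these cells in the members' differences was not tested.

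As a check of the tissue, the heart muscle gene Myh6 had 14.71 and 14.62 on the knock-in arrays, against 14.53 and 14.61 on the wild-type arrays, and the 7 cardiomyocyte markers had a median difference of 0.05 (0.02 after quantile normalisation and 0.12 with the arrays shifted to a common median). The targeted gene Gsk3a had 10.62 and 10.80 in knock-in hearts, against 11.16 and 11.08 in wild-type hearts (difference -0.42, limma adjusted p = 0.458). A substituted amino acid need not alter the transcript, so this checks the labels only weakly. Liver transcripts stood apart by genotype, with all 9 measured above 0, a median of 2.78 and a summed signal of 5156 and 2093 on the knock-in arrays, against 726 and 447 on the wild-type arrays. Knock-in replicate 1, highest for these, was also the array with the lower member median, and their part in the members' differences was not tested. The 3′ minus 5′ signal of the Gapdh control, a sign of RNA quality, was 0.54 and 0.76 on the knock-in arrays, against 0.62 and 0.61 on the wild-type arrays. Knock-in replicate 2 was highest in this measure and knock-in replicate 1 lowest, and the part of RNA quality in the members' differences was not tested.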

How the data were processed

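Per the labels and the submitters' processing notes, the submitters deposited log2 values made by RMA in Affymetrix Expression Console, with the wild-type arrays normalised together with the knock-in arrays. Its version is not given in the sources used here. RMA normalises the arrays to each other at the probe level, which reduces a difference that most genes share, although the medians of the deposited arrays still ran from 6.14 to 6.23. The number of arrays limits the precision (median standard error 0.12).

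Of 45101 probe sets, 64 controls were left out. The array annotation gave 1 symbol to 34945 tested probe sets, several to 932 and none to 9160, and each gene was read from the probe set brightest on average over the 4 arrays. The fit used limma 3.58.1 under R 4.3.3 (lmFit, eBayes, no covariate), with 2 residual and 4.54 prior degrees of freedom. The p-values were adjusted by Benjamini-Hochberg over all 45037 probe sets at 0.05. The fit was also run on simulated data with added differences larger than that of any member. That run gives no check for differences of the members' size. Tables and plots used Python 3.11.15, pandas 2.3.3, numpy 2.4.6 and matplotlib 3.10.9. All measured members could be named, and from each other list up to 4 genes of smallest limma p and the defining cell markers. The members and lists were chosen with earlier results of these data known. Promoter sequences are from RefSeq. Summed signals add 2 to the power of each log2 value. The alternatives were the normalisation between arrays, dim and cross-hybridising probe sets, the mean of a gene's probe sets, an intensity trend, the replicate block and each array left out.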

Additional observations from a re-analysis of the deposited data

How the results depend on the processing

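No member passed the adjusted test under any of the 12 alternatives (smallest adjusted p 0.194), and the member median stayed below 0, from -0.18 after quantile normalisation to -0.07 with arrays shifted to 1 median. Leaving out each array gave member medians from -0.17 to -0.08, 27 to 30 members below 0, 1 to 6 at an unadjusted p under 0.05 and lower (1.74% to 10.3% of all genes), and 20 to 25 below both or the only array of the other group (32.6% to 44.7% of all genes), with 5 to 8 above, where a single array per group makes separation easier. The medians over all genes were then -0.03 to 0.01, and the probe sets called higher in the whole table numbered 0 to 2, against 3 with all arrays. Over all genes the median was 0.05 with arrays shifted to 1 median and 0.04 where dim probe sets (mean under 6) were left out. The shift also gave 11 probe sets called higher, 11 members below both wild-type arrays (15.5% of all genes) and 1 lower at an unadjusted p under 0.05 (2.42% of all genes). Members above both wild-type arrays numbered 1 after quantile normalisation and 2 after cyclic loess. The share of all genes that lay above was not taken under the alternatives, so these counts cannot be set beside it. Averaging the probe sets of a gene gave 6 genes called higher and 1 lower. With the replicate block 3 members were lower at an unadjusted p under 0.05 (5.08% of all genes), against 7 without it (4.76% of all genes). Same-numbered arrays deviated together only weakly (r = 0.08 over probe sets, with 2 pairs), so the number is not taken as a pairing. The block changed no call among the members. Among all probe sets tested, 4 were called higher with the block, against 3 without it. Of 441 single-gene values under an alternative 33 turned sign, in 14 genes. These were, after quantile normalisation, Dhx58 at 0.02, Irf9 at -0.03 and Parp14 at -0.09; with arrays shifted to 1 median, Cxcl9 at 0.03, Dhx58 at 0.00, Ifi35 at 0.01, Irgm1 at 0.03 and Psmb9 at 0.05; after cyclic loess, Dhx58 at 0.05, Irf9 at 0.00, Parp14 at -0.06 and Zbp1 at 0.00. The mean of probe sets gave Ddx58 0.02, Irf8 -0.04, Parp14 -0.01 and Stat2 -0.07. With 1 array left out the turning genes ranged from -0.06 to 0.00 for Cxcl9, -0.19 to 0.07 for Dhx58, -0.14 to 0.04 for Ifi35, -0.35 to 0.03 for Ifit2, -0.07 to 0.11 for Irf9, -0.08 to 0.01 for Irgm1, -0.17 to 0.25 for Mx1, -0.17 to 0.03 for Mx2, -0.01 to 0.04 for Parp14, -0.13 to 0.10 for Psmb9 and -0.05 to 0.17 for Stat2. Ifit1 kept its sign throughout, between -0.70 and -0.42, as did Igtp, between -0.42 and -0.25. The shift moves every gene by the same amount, and Ddx58, Irf8, Parp14 and Stat2, which turned in the mean of probe sets, have probe sets of mixed sign. The cause of the other turns was not tested.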
